A study of Macaca mulatta with 4 samples.

Results

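On the inner part of chromosome 19, intervals called for H3K27me3 formed 2 very different patterns in rhesus macaque (Macaca mulatta) morulae. They made broad blocks in embryos labelled GG and short, scattered stretches in embryos labelled AG, and were called with different settings in the 2 groups. The region was cut into 10-kb bins counted from position 0, and the first and last 5 Mb of the chromosome were left out. That gave 4364 bins, from 5000001 to 48640000 on rheMac8, of 283406 bins in the genome. Chromosome 19 was chosen by its dense GG coverage, with 2 of the highest GG windows of the genome at 26 to 28 Mb, so its GG levels and its difference from AG are given as a description. There were 2 libraries from AG morulae and 2 from GG morulae, all made by CUT&RUN with an antibody to H3K27me3. Their sample titles read ChIP_seq. The series describes its embryos as androgenetic, which carry chromosomes of the father alone, and gynogenetic, which carry those of the mother alone, read here as AG and GG. No other treatment, allele or strain is named for either group, and the number of embryos per library is not given in the sources used here. The labels do not tell whether the replicates of a group came from different embryos, so the spread between them may be technical.

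H3K27me3 is trimethylation of lysine 27 on histone H3. It is written by the Polycomb repressive complex PRC2 and is found over silent developmental genes and, in oocytes and early embryos, over broad domains that can differ between the maternal and the paternal genome. Some genes of the mouse embryo are imprinted through H3K27me3 inherited from the oocyte in place of DNA methylation. Primate chromosome 19 is known for a high gene density and for large clusters of zinc-finger genes. Which genes lie under the regions below was not analysed here.

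Each library is a set of intervals, read as runs of bases covered by tags within islands that the submitters called enriched. On inner chromosome 19 AG replicates 1 and 2 had 970 and 1277 of their 42512 and 44337 intervals. GG replicates 1 and 2 had 7769 and 7674 of their 362999 and 287230. Their median length was 191 and 228 bp in AG and 331 and 374 bp in GG. At most 1 interval was identical between any 2 libraries here. Tags were not counted in these intervals, which leaves the sequencing depth unknown, and a base outside an interval is not shown to lack the mark. The submitters used a window of 200 bp and a gap of 200 bp to call AG islands and 300 bp and 1200 bp to call GG islands. An effect of these settings and one of the group cannot be told apart.

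By mean coverage, inner chromosome 19 ranked first among the autosomes in both groups. The covered share of the stretch was 0.604% in AG replicate 1 and 1.03% in AG replicate 2, against 11.9% and 13.0% in the GG replicates. AG averaged 0.819% ± 0.303 and GG averaged 12.4% ± 0.743 (SD, n = 2 each), and the groups did not overlap. With 2 libraries against 2 no exact two-sided permutation test can go below 0.33, and none was run. In the pooled inner bins of the other 19 autosomes the levels were 0.444% ± 0.0771 in AG and 6.37% ± 0.541 in GG, measured the same way. All 20 autosomes had both GG libraries above both AG libraries.

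Its neighbours in that order lay within the spread between replicates. In GG, chromosome 16 held 12.4% ± 0.353 and chromosome 10 held 11.9% ± 0.435 (SD, n = 2 each). GG replicate 1 put chromosome 16 first with 12.7%, whereas GG replicate 2 put chromosome 19 first. In AG, chromosome 13 was next with 0.757% ± 0.0394 and was first in AG replicate 1 with 0.729%. GG coverage was 15.2 times AG coverage on inner chromosome 19, the ninth of 20 autosomes, against 22.9 times on chromosome 10 and 19.02 times on chromosome 16. The high GG level was thus accompanied by a high AG level, and the ratio of the groups was close to the 14.4 times of the other autosomes pooled.

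**Figure D1:**
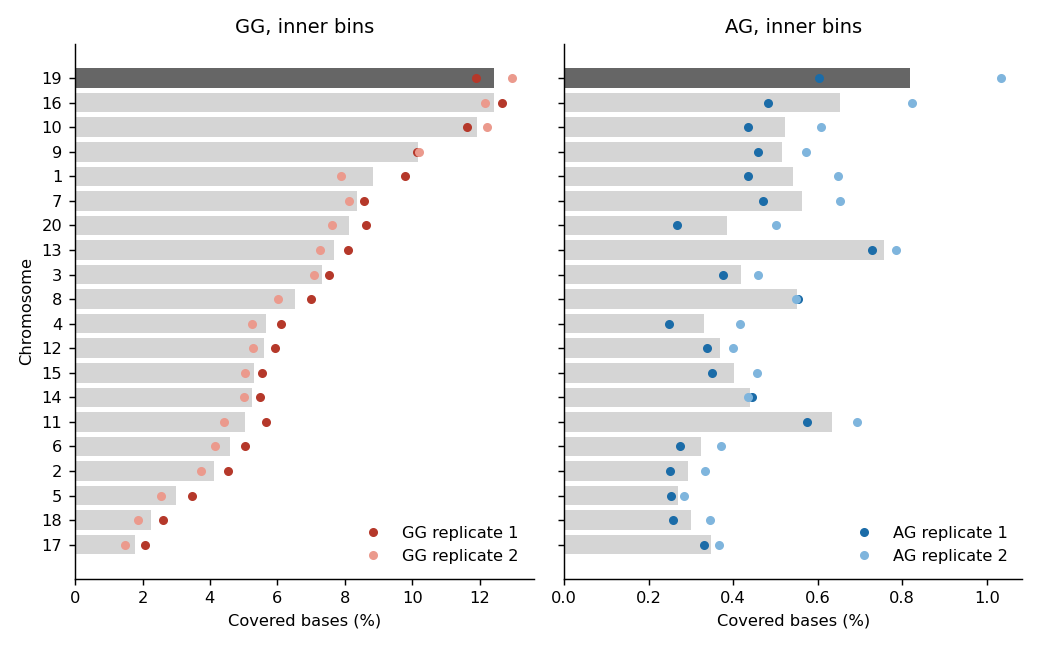
Covered percentage of the inner bins of each autosome, in GG (left) and AG (right), with chromosomes ordered by their GG mean. Bars are means over 2 libraries and points are single libraries; chromosome 19 (dark bar) has the highest mean in both groups, with chromosome 16 within the spread of the GG replicates.

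Coverage was uneven along the chromosome. Over 43 whole windows of 1 Mb the median was 5.27% in GG and 0.698% in AG. Both GG libraries were above 20% in 7 windows and under 5% in 19. Both GG libraries lay above both AG libraries in 36 windows, and the reverse held in 1 window, at 33 to 34 Mb, where the AG libraries had 0.401% and 0.731% and both GG libraries had 0%. The remaining bins, from 48000001 to 48640000, held 2.95% and 2.62% in GG replicates 1 and 2 and no AG base. At the limits of the region, the last window left out at the first end held 2.09% and 1.25% in GG replicates 1 and 2 and the first window kept held 9.06% and 9.66%. At the other end, the last Mb kept held 1.89% and 1.67% and the next Mb 4.64% and 3.55%.

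The 5 highest GG windows were at 26 to 27, 27 to 28, 25 to 26, 46 to 47 and 24 to 25 Mb. At 26 to 27 Mb the intervals covered 71.3% and 84.4% in GG replicates 1 and 2 and 1.92% and 3.56% in AG replicates 1 and 2. At 27 to 28 Mb they covered 67.7% and 83.8% in GG and 1.26% and 1.45% in AG. These were the first and the second of 2601 inner windows of the autosomes and X by GG mean, which is how the chromosome was chosen. The window at 25 to 26 Mb followed at 48.2% and 59.0% in GG and had rank 17 in that order. Separate from these, the window at 46 to 47 Mb held 37.4% and 43.9% in GG, with 0.260% and 2.24% in AG. In it 57 bins were marked in both GG libraries, while 17 were marked in AG replicate 2 and 1 in AG replicate 1, so the AG level there rests on replicate 2.

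At the other extreme, the 5 lowest GG windows were at 20 to 21, 32 to 33, 33 to 34, 21 to 22 and 39 to 40 Mb. The first 3 had no GG base. GG replicate 2 alone had 0.169% at 21 to 22 Mb, and 39 to 40 Mb held 0.350% and 0.511%. A window at 20 to 21 Mb had no interval in any of the 4 libraries.

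The highest AG windows were partly in other places. At 5 to 6 Mb AG replicates 1 and 2 covered 2.31% and 4.59%, at 26 to 27 Mb 1.92% and 3.56%, at 12 to 13 Mb 2.08% and 2.97%, at 25 to 26 Mb 2.30% and 2.75% and at 13 to 14 Mb 1.46% and 2.29%. Of these 5, the windows at 25 to 27 Mb are among the densest in GG. The other 3 held GG means of 9.36%, 2.51% and 2.59%. Across the 43 windows, Spearman's rho was 0.974 between the GG libraries, 0.727 between the AG libraries and from 0.395 to 0.436 between an AG and a GG library. These are descriptions of windows along 1 chromosome, which share libraries and neighbours and are not independent.

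**Figure D2:**
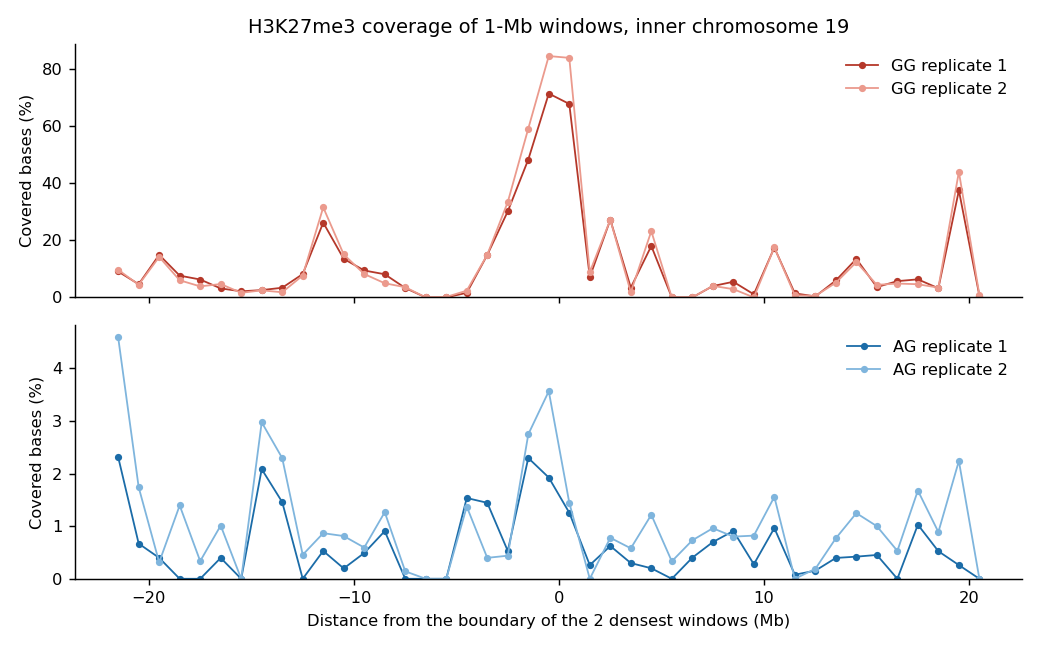
Covered percentage of 43 windows of 1 Mb along inner chromosome 19, GG above and AG below on separate scales, plotted by distance in Mb from the boundary between the 2 densest windows. Points are windows and each line is a library; both GG libraries peak at the boundary, at 71.3% and 84.4% just before it, while no AG window exceeds 4.59%.

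The dense GG stretch ran from 24 to 28 Mb, taking the neighbouring windows with a GG mean above 30%, a limit set after their values were seen. Its 400 bins are 9.17% of the inner bins and held 41.8% and 46.1% of the covered bases of GG replicates 1 and 2, against 22.8% and 18.2% of those of AG replicates 1 and 2. GG coverage was 59.7% ± 7.65 inside and 7.66% ± 0.0452 in the rest of inner chromosome 19 (SD, n = 2). AG coverage was 1.78% ± 0.387 inside and 0.722% ± 0.295 in the rest. Inside it, 288 bins (72.0%) were marked in both GG libraries, where marked means at least 450 covered bases, or 3 tag lengths. In the rest this was 471 bins, or 11.9%. A further 90 of the 400 bins had no GG base, so the stretch was a series of blocks and not a single one.

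Such a concentration was not unusual for an autosome. The 4 densest of the 43 windows held 45.8% of the GG bases of inner chromosome 19, whereas the densest 10% of windows held from 32.9% to 57.2% on the other 19 autosomes, with a median of 46.9%. On chromosomes 16 and 10, which matched chromosome 19 in GG level, it held only 32.9% and 38.3%. Without those windows GG coverage was 7.51% on chromosome 19, 9.31% on chromosome 16 and 8.16% on chromosome 10. The level of chromosome 19 rested more on a few windows than theirs did, a comparison that was not tested.

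In steps of 100 kb the dense stretch had a ragged first part and a denser last 2 Mb. Both GG libraries covered over 50% in 23 of its 40 steps, over 80% in 11 and under 10% in 4. Of the 20 steps in the last 2 Mb, 15 had over 50% and 10 over 80% in both GG libraries, and no step fell under 25.7% in GG replicate 1 or 39.3% in GG replicate 2. The step from 25700001 to 25800000 had no GG base, and the next held 76.0% and 84.7%. The highest step, from 26000001 to 26100000, held 94.6% and 98.3%. AG coverage in the last 2 Mb reached at most 6.77% and 14.5% in AG replicates 1 and 2.

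The block went on just past 28 Mb, where its end was abrupt and nearly the same in both GG libraries. Coverage by GG replicate 1 ended at 28099827 and that by GG replicate 2 at 28097195. The next GG interval began at 29144900 and 29142887, after 1045 and 1046 kb without a GG base. The step from 28000001 to 28100000, just before that end, held 71.1% and 88.5% in GG. From 28099828 to 29142886 no library of either group had an interval. Whether tags could be placed there was not tested, since no sequence or input library was used here.

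**Figure D3:**
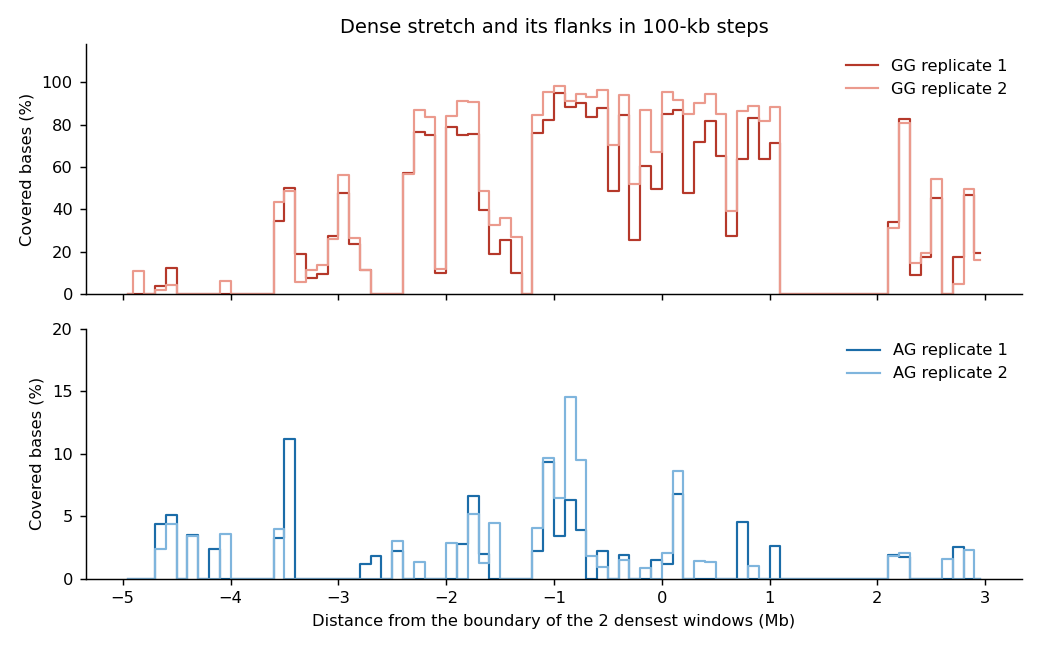
Covered percentage in steps of 100 kb across the dense stretch and 2 Mb on each side, GG above and AG below on separate scales, by distance in Mb from the boundary of the 2 densest windows. Each line is a library. GG coverage stays above 25.7% in all 20 steps of the last 2 Mb of the stretch. The block runs about 100 kb past the end of the stretch, before 1.04 Mb without an interval in any library.

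GG domains were long and AG domains short on inner chromosome 19. Intervals no more than 1500 bp from the next were joined into domains, of which those with at least 450 covered bases were kept. The N50 (domains of this width or wider make up 50% of the total width) was 3330 and 2692 bp in AG replicates 1 and 2 and 25926 and 37394 bp in GG replicates 1 and 2. AG averaged 3011 ± 451 bp and GG averaged 31660 ± 8109 bp (SD, n = 2 each), with the wider gap of the GG calls able to lengthen GG domains by itself. On the inner parts of the other autosomes the N50 was 20165 and 25933 bp in GG replicates 1 and 2 and 4454 and 3533 bp in AG. Each GG library had wider domains on chromosome 19 than on the other autosomes, and each AG library had narrower ones. The chromosome was chosen by its dense GG coverage, so its wider GG domains are only a description. Neither difference was tested. Domains of at least 100 kb numbered 4 and 13 in GG replicates 1 and 2 and 0 in both AG libraries.

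The 5 widest GG domains found in both libraries all lay in the dense stretch. The widest ran from 25949351 to 26185301 (235.951 kb) and was covered to 94.0% and 97.3% in GG and to 6.36% and 10.5% in AG. The next, from 26218714 to 26364319, was 145.606 kb wide and held 92.6% and 95.4% in GG and 0% and 2.86% in AG. The third, from 27011636 to 27118702 (107.067 kb), held 95.1% and 97.7% in GG and 3.13% and 3.66% in AG. The domains from 24775503 to 24870358 and from 24639200 to 24733207 held at least 88.6% in each GG library and no AG base. GG domains of this size therefore occurred both with and without AG intervals inside them.

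Bins marked in both GG libraries numbered 759 (17.4% of the inner bins), with 878 and 847 marked in GG replicates 1 and 2. In the inner bins of the other autosomes 8.76% were marked in both. The Jaccard index, the bins marked in both libraries as a fraction of those marked in either, was 0.786 between the GG libraries here and 0.683 on the other autosomes. The 759 bins fell into 161 runs of neighbouring bins, of which 29 were single bins and the longest had 70 bins, from 25810001 to 26510000. This run was covered to 87.3% and 94.5% in GG and to 3.93% and 6.71% in AG. At least 9000 bases were covered in both GG libraries in 148 bins (19.5% of the GG bins), against 16.01% on the other autosomes and 18.8% on chromosome 16.

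Of the GG bins 613 had no AG base, which is 80.8% of the GG set, against 92.8% of all inner bins and against 82.2% of the GG set of the other autosomes. Lacking AG was thus the usual state of a bin and not a trait of the GG set. Their median coverage was 6737 and 7713 bases in GG replicates 1 and 2, close to the 6985 and 7948 bases of all GG bins. Runs of at least 5 neighbouring bins marked in both GG libraries and in neither AG library numbered 37, with 286 bins in all. These bins made up 37.7% of the GG set, and such runs made up 38.1% of it on the other autosomes. The longest had 14 bins, from 27340001 to 27480000, covered to 79.6% and 91.9% in GG and to 0% in both AG libraries. The next were 3 runs of 13 bins. Those from 24630001 to 24760000 and from 27500001 to 27630000 lie in the dense stretch, while that from 31280001 to 31410000 lies beyond it and was covered to 72.6% and 85.3% in GG.

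Bins marked in both AG libraries numbered 96 (2.20% of the inner bins), with 134 and 251 marked in AG replicates 1 and 2. In the inner bins of the other autosomes 1.14% were marked in both. The Jaccard index of the AG libraries was 0.332 here and 0.409 on the other autosomes, well below that of the GG pair. Unequal numbers of marked bins, here 134 and 251, cap this index, so the 2 pairs are not on an equal footing. The 96 bins fell into 73 runs, 58 of them single bins, so marked AG bins were mostly isolated. Their median coverage was 1883 and 1878 bases in AG replicates 1 and 2. No bin reached 9000 bases in both AG libraries.

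**Figure D4:**
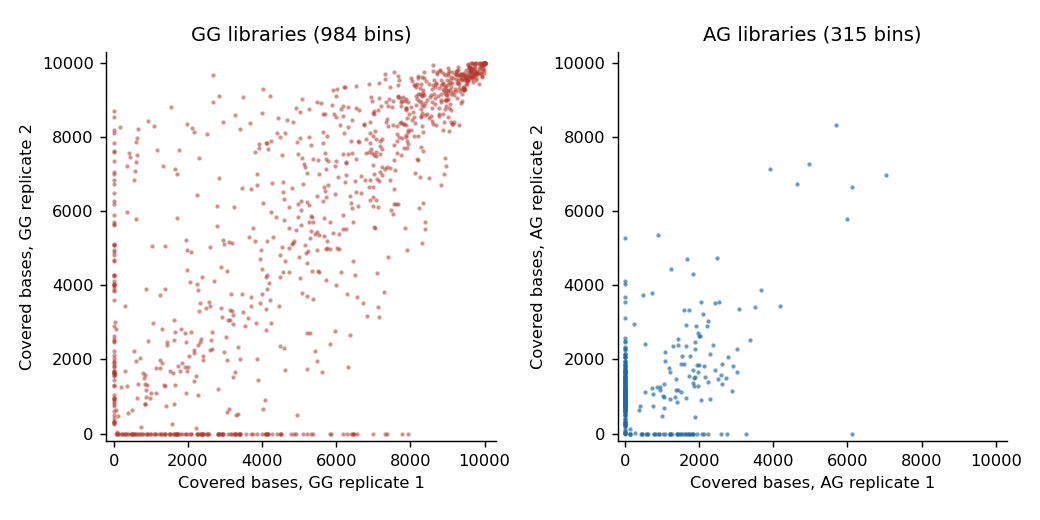
Covered bases per 10-kb bin in replicate 1 (x axis) against replicate 2 (y axis), for GG (left, 984 bins with a base in either library) and AG (right, 315 bins). Each point is a bin, and a bin holds at most 10000 bases. A base in both libraries is found in 780 of the GG bins, of which 148 reach 9000 bases in both. In AG 101 bins have a base in both libraries and none reaches 9000 bases in both.

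Most AG bins were either shared with GG or without any GG base, while 5 were marked in only 1 GG library. Of the 96 AG bins 49 were also marked in both GG libraries, which is 51.0% of the AG set and 6.46% of the GG set. The same shares were 63.9% and 8.32% on the other autosomes, and 67.3% and 67.7% of the AG sets of chromosomes 16 and 10. In the shared bins the medians were 1938 and 1856 bases in AG replicates 1 and 2 and 8095 and 8283 bases in GG replicates 1 and 2. Another 41 AG bins, or 42.7% of the AG set, had no GG base, against 25.4% on the other autosomes. Among all 4364 inner bins 3380 had no GG base, a larger share than in the AG set. These differences between chromosomes were not tested. The 41 AG bins without GG held medians of 1831 and 2102 bases in AG replicates 1 and 2, much like the shared ones.

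Windows of 1 Mb with shared AG bins numbered 21, those with AG bins lacking GG numbered 19, and 11 windows held both kinds. In the dense stretch, where 72.0% of all bins were marked in both GG libraries, 17 of 18 AG bins were so marked. In the rest of inner chromosome 19, where 11.9% of all bins were, 32 of 78 AG bins were. The stretch was picked for its GG density, so nothing about the placement of AG is read from its overlap. In the window at 5 to 6 Mb 9 of 100 bins were marked in both AG libraries and 14 in both GG libraries, with none in common. All 9 AG bins had no GG base. Of these 9, 7 were neighbours in 1 run, and most bins of the window were unmarked in GG. No separation of the groups is read from this window. The 41 AG bins without GG were spread over 19 windows, at a median of 67.8 kb from the nearest GG base, and 9 of them lay within 20 kb of one.

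The longest AG run lay in that window and was bare in GG. It had 7 bins, from 5210001 to 5280000, and was covered to 21.8% and 38.4% in AG replicates 1 and 2 and to 0% in both GG libraries. Its bin from 5230001 to 5240000 held 4968 and 7268 bases in AG. A bin from 5300001 to 5310000 followed with 4628 and 6735 bases, again with none in GG. This place lies close to the 5 Mb left out at that end.

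The widest AG domain was partly covered in GG as well, with bins of AG alone and of GG alone nearby. It ran from 12984396 to 13003264 (18.869 kb) and was covered to 75.4% and 80.8% in AG replicates 1 and 2 and to 37.6% and 48.8% in GG replicates 1 and 2. Just before it, the AG domain from 12974551 to 12981538 held 65.1% and 76.8% in AG and 0% in GG. Beyond it, the bin from 13020001 to 13030000 held 2286 and 3304 bases in GG and none in AG. The bin from 13070001 to 13080000 held 3682 and 3875 bases in AG and none in GG. Bins of AG alone, of GG alone and of both thus lay within 110 kb of one another, each the same way in both replicates of its group.

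Other wide AG domains lay inside GG blocks. The second, from 25971957 to 25980030 (8.074 kb), held 70.0% and 82.9% in AG and 96.1% and 97.2% in GG, inside the widest GG domain. The fifth, from 25275537 to 25282064 (6.528 kb), held 80.3% and 79.2% in AG and 92.0% and 91.1% in GG. The third, from 5229110 to 5237127 (8.018 kb), belongs to the longest AG run, with 67.2% and 67.7% in AG and 0% in GG. So AG domains of similar width and filling were found with almost full and with no GG coverage.

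Each bin of the genome was also tested with limma, on the log2 scale and after dividing covered bases by the total of the library, and 795 inner bins of chromosome 19 had enough coverage to be tested (at least 750 bases in 2 or more libraries). With p adjusted by Benjamini-Hochberg over all bins and a limit of 0.05, 586 of them were higher in GG, where 75.6% of all 30536 bins tested were called so, and 80 were higher in AG, where 10.7% of all were called so. The rule that chose the chromosome used GG coverage, and these shares are near the background, so nothing about chromosome 19 is read from them. Of the GG calls 585 had no AG base and of the AG calls 38 had no GG base. Bins of that kind were tested only because 1 group covered them. Without scaling, 669 of the 795 were higher in GG, where 85.1% of all 30536 bins tested were called so. Another 40 were higher in AG, where 3.85% of all were called so.

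For the 49 bins with marks in every library, the direction turned with the scaling. After scaling, limma called 39 of them higher in AG and 0 higher in GG. Without scaling it called 1 higher in AG and 37 higher in GG. A scaled difference is one in the share of a library's total, and covered bases stop at 10000 per bin, so neither fit shows which group carried more of the mark in these bins. The 586 bins higher in GG and 40 higher in AG under both scalings were nearly all at 0 in the other group, where rescaling cannot turn the direction.

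The bins at the extremes of the fit were covered in 1 group only. The largest AG excess was the bin from 5230001 to 5240000 (limma log2 AG minus GG of 7.26, SE 0.284, adjusted p = 0.000284). Next came the bins starting at 12970001, 5300001, 13070001 and 22640001, with 5985 and 5785, 4628 and 6735, 3682 and 3875, and 3520 and 3403 bases in the AG replicates and none in GG. The GG extreme was the bin from 25160001 to 25170000, full in GG at 10000 bases per library and empty in AG (limma log2 AG minus GG of -4.24, SE 0.0792, adjusted p = 7.55e-05). The next started at 27090001, 27080001, 26140001 and 26670001 and were covered to at least 9961 bases in both GG libraries and to 0 in AG. These log2 differences depend on the 300 bases added to each bin and are no measured folds, and a group at 0 in both libraries has no spread by construction.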

How the data were processed

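The submitters' processing notes name deepTools 3.3.1, SICER 1.1, Bowtie2, SAMtools, Trim Galore and rheMac8. Per the names of the deposited files, SICER islands were called per library at an E value of 0.001. The deposited files list start and end positions without counts, scores or strand. Positions are printed counting from 1.

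Members, lists and tests were chosen with earlier results of these data known. The span of chromosome 19 ended at the last interval of any library. limma 3.58.1 (R 4.3.3, lmFit, eBayes with trend) was fitted to all bins of the genome with a prior of 300 bases. It was coded as AG minus GG, without a replicate block. The code was tried on simulated data in which few bins differed, unlike these data, so that trial lends no weight to the calls. Values were compared as mean ± SD over 2 libraries. Named regions were the 5 widest domains found in both libraries of a group, the 5 highest and 5 lowest log2 differences, the 5 highest and lowest GG and 5 highest AG windows, and the 3 longest GG runs without AG (4 with ties). Gene lists were planned but not used, for want of a rheMac8 annotation here. Alternatives covered scaling, prior, filter, block, marking limit, joining distance, margin, a common clustering rule and each library left out. Python 3.11.15, numpy 2.4.6, pandas 2.3.3 and matplotlib 3.10.9 were used.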

Additional observations from a re-analysis of the deposited data

How the results depend on the processing

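Leaving out 1 of 2 libraries cannot move a mean by more than its SD; of the other 51 alternative values, 35 stayed within the replicate SD or within 1.5 times the count. GG coverage was 13.3% with a 10 Mb margin and 7.66% without the stretch from 24 to 28 Mb, an alternative chosen after seeing the data. Joining domains at 5000 bp gave an N50 of 3842 bp for AG and of 62595 bp for GG, and joining at 500 bp gave 20774 bp for GG. With 1500 bases to mark a bin, 54 bins were marked in both AG libraries and 29 in all 4. Leaving out a library gave 134 to 251 AG bins (251 without AG replicate 1), 847 to 878 GG bins and 50 to 117 shared bins (117 without AG replicate 1). It gave 0.604% to 1.03% coverage in AG, 11.9% to 13.0% in GG, and an N50 of 2692 to 3330 bp in AG and 25926 to 37394 bp in GG.

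Bins called higher in AG with limma numbered 40 without scaling, 45 with median-of-ratios factors, 45 among bins covered in all 4 libraries, and 17 to 122 without a library. Those extremes were 17 without GG replicate 2, 20 without GG replicate 1 and 122 without AG replicate 1; here the group with 1 library borrows its spread from the other. Bins higher in GG numbered 579 to 624 without a library and 1 among bins covered in all 4, a filter that drops bins without an AG base. The filter on all 4 libraries left only 52 inner bins to test, and called 2190 of 2620 bins of the genome higher in AG. Median-of-ratios factors kept 795 inner bins, and called 1708 of 30536 in the genome higher in AG. The equal counts of 45 thus rest on different sets of bins. In every fit named here, AG calls over the whole genome moved from the main fit in the same direction. Nothing about chromosome 19 is read from these shifts. A replicate block gave 67 calls for AG and 583 for GG. Same-numbered libraries deviated with a correlation of -0.0646 over all tested bins, and no label pairs them. Keeping clusters of at least 1000 bp after joining at 200 bp in every library removed 28.02% and 16.1% of the AG bases and 6.57% and 3.31% of the GG bases. Depth is unknown and limits every level.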

Other observations

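The difference between the GG libraries lay mainly in the dense windows of inner chromosome 19. GG replicate 2 covered more than GG replicate 1 in 7 of the 8 windows of 1 Mb with a GG mean above 20%, and less in 16 of the 27 windows with a mean above 0 and under 10%. In the dense stretch it covered more in 35 of 40 steps of 100 kb. The rest of inner chromosome 19 was covered to 7.62% and 7.69% in GG replicates 1 and 2. Over the inner bins GG replicate 2 was above GG replicate 1 on 3 of the 20 autosomes, chromosome 19 among them, while AG replicate 2 was above AG replicate 1 on 18. These splits are values of single libraries and were not tested.

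Base by base, 48.4% and 47.3% of the bases covered in AG replicate 1 lay inside intervals of GG replicates 1 and 2, and 43.3% and 40.9% of those of AG replicate 2 did. AG replicate 1 had 48.2% of its bases inside AG replicate 2, about the share it had inside either GG library, although AG replicate 2 covers 1.03% of the stretch and the GG libraries 11.9% and 13.0%. The GG libraries held 82.4% and 75.7% of each other's bases.

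The longest stretches without an interval in any library ran from 19864500 to 21752326 (1.89 Mb), from 47027168 to 48591814 (1.56 Mb), from 32205849 to 33650532 (1.44 Mb) and from 37793134 to 38960314 (1.17 Mb). In all, 3237 of the 4364 bins (74.2%) had no base in any library.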
